A study of Homo sapiens with 3 samples.

Results

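The serglycin gene, SRGN, lies on the plus strand of chromosome 10, from about 70.848 to about 70.865 Mb on hg19, and drew 11 peaks of the vitamin D receptor (VDR) in calcitriol-treated THP-1 cells against 2 in unstimulated cells. The locus was taken as the 200 kb from 70750000 to 70950000, and every peak of either list that overlapped it was counted, which gave 13 of 2989 peaks in all (2 of 1169 unstimulated and 11 of 1820 calcitriol peaks). It was chosen by its number of peaks in each list, for its gain after the ligand, so the counts below describe it and no test is made of them. The peaks came from chromatin immunoprecipitation and sequencing (ChIP-seq) with an anti-VDR antibody in THP-1, an established human monocytic leukaemia cell line. The series has 3 samples: VDR in unstimulated cells, VDR in cells given 10 nM calcitriol, the hormonal form of vitamin D, for 40 min, and a non-specific IgG control from pooled material, which was not analysed here. Both VDR cultures spent the preceding night in medium with charcoal-stripped serum, which lowers steroid-like ligands. Each condition is 1 library made from several pooled immunoprecipitations, so no spread between cultures can be given, and the lists hold positions with no read depth, height or p-value.

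Serglycin is the core protein of a proteoglycan of blood-forming cells. Glycosaminoglycan chains are attached to its serine and glycine repeats, and the charged chains help to pack proteases, chemokines and other cargo into secretory granules and vesicles. Monocytes and macrophages make and secrete it. VDR, a transcription factor activated by calcitriol, binds DNA mostly as a partner of a retinoid X receptor. Bound sites of such receptors often lie inside genes or far from them as well as at promoters. In the RefSeq gene order of GRCh38.p14, of which only the order was used, the protein-coding neighbours before SRGN are DDX50 and DDX21, both RNA helicases, and KIFBP, a kinesin-binding protein. Those after it are VPS26A, a subunit of the retromer sorting complex, SUPV3L1, a mitochondrial RNA helicase, and HKDC1, a hexokinase-like protein.

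Before the ligand, VDR was listed at 2 places, upstream of the gene and at its 3′ end. The first unstimulated peak (chr10:70824321-70826690, 2369 bp wide) was centred about 22 kb upstream of the gene start. The second (chr10:70864521-70866261, 1740 bp wide) lay at the 3′ end of the gene, across it as far as that edge is known. The 37831 bp between them, which take in the gene start and nearly the whole gene body, held no unstimulated peak. Both peaks overlapped calcitriol peaks, so the locus had no unstimulated-only peak, where 37.4% of all unstimulated peaks and 31.8% of the 22 on the rest of chromosome 10 were unstimulated-only. Neither belongs to the 170 rows of the unstimulated list that break its position order.

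After calcitriol the list named 3 peaks upstream of SRGN, 5 inside it and 3 at its 3′ end and just beyond. A calcitriol-only peak shares no base with an unstimulated peak. Such peaks made up 60.6% of all 1820 calcitriol peaks and 74.1% of the 58 on the rest of chromosome 10. At the locus they were 7 of 11 (63.6%). All 5 peaks inside the gene were calcitriol-only. They ran from chr10:70850441-70851450 (1009 bp) through chr10:70853131-70854651 (1520 bp), chr10:70855601-70857241 (1640 bp) and chr10:70859791-70860821 (1030 bp) to chr10:70860831-70861941 (1110 bp). Their centres lay about 3, 6, 8, 12 and 13 kb into the gene. The last of these peaks began 10 bp after the one before it, and the other gaps among the 5 were 1681, 950 and 2550 bp. Calcitriol peaks covered about 42.0% of the gene's length. The unstimulated list reached into the gene by 479 bp at its 3′ end, which is less than the precision of that edge, so no percentage is given for it. The gene's edges are known here to about 1 kb, so the percentage and the distances to the gene are approximate, whereas distances between peaks are as deposited.

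The start of the gene itself carried no peak in either list. The nearest calcitriol peak edge lay about 2 kb inside the gene, and the nearest upstream calcitriol peak (chr10:70832621-70833511, 890 bp, calcitriol-only) was centred about 15 kb before the start. In the unstimulated list the peak nearest to the start was the one at the 3′ end, whose closer edge was about 17 kb away. The gap of 16930 bp between the last upstream calcitriol peak and the first peak inside the gene, which contains the gene start, was the widest gap between neighbouring calcitriol peaks of the locus.

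**Figure D1:**
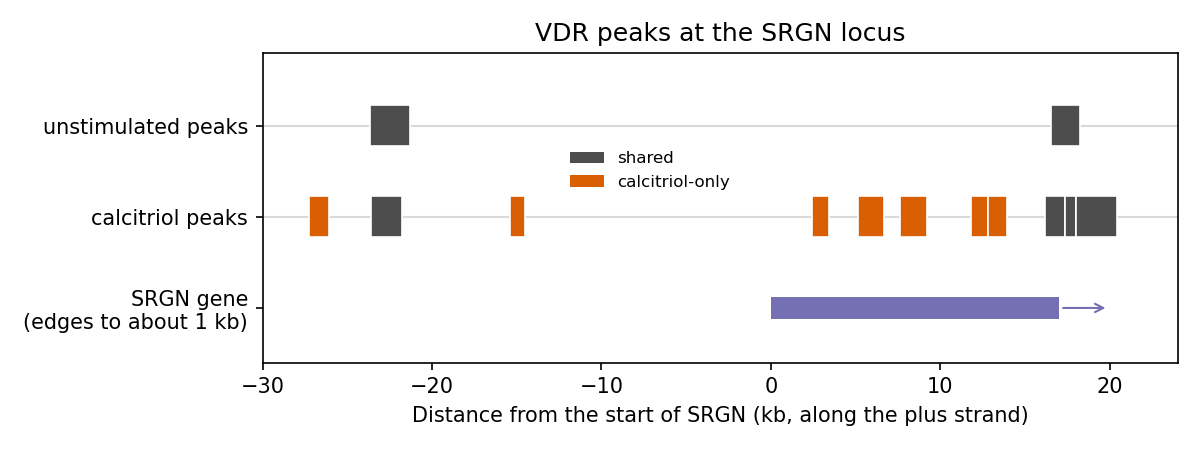
VDR peaks of the unstimulated list (top) and the calcitriol list (middle) against the SRGN gene (bottom, the arrow gives its strand), by distance in kb from the gene start; the bar length is the peak width, white lines part peaks that lie 10 bp apart, grey peaks overlap a peak of the other list and orange peaks are calcitriol-only. The 2 unstimulated peaks lie upstream of the gene and at its 3′ end, and no peak covers position 0. The 5 calcitriol peaks inside the gene are all orange. Of the 11 at the locus, 7 (63.6%) are, against 60.6% of all calcitriol peaks and 74.1% on the rest of chromosome 10. The locus was chosen for its gain of peaks, so nothing is read from these shares.

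Upstream of the gene, the calcitriol list had a peak at the site already listed before the ligand and a further peak on each side of it. The calcitriol peak at that site (chr10:70824371-70826231) was 1860 bp wide, lay wholly within the unstimulated peak and was 0.785 times as long. Its left edge stood 50 bp and its right edge 459 bp inside the unstimulated peak. The flanking calcitriol-only peaks were chr10:70820711-70821931 (1220 bp), which ended 2440 bp before it, and the 890 bp peak named above, which began 6390 bp after it.

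At the 3′ end the listed site was longer after the ligand. The single unstimulated peak of 1740 bp stood where the calcitriol list had a string of 3 peaks 10 bp apart, chr10:70864161-70865361 (1200 bp), chr10:70865371-70866001 (630 bp) and chr10:70866011-70868400 (2389 bp). Together they spanned 4239 bp, or 2.44 times the unstimulated peak. The stretch began 360 bp before the unstimulated peak and ended 2139 bp after it, so most of the added length pointed away from the gene. The third peak of the string shared only 250 bp (10.5% of its width) with the unstimulated peak, and was called shared through those bases. The upstream site and the 3′ site therefore differed in opposite directions in length between the lists.

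With adjacent peaks joined, 14 sites of the rest of chromosome 10 could be paired one to one between the lists, and their calcitriol lengths were 0.623 to 1.90 times the unstimulated ones, with a median of 1.18. The 3′ site of SRGN was above all 14 of them and the upstream site was within their range. Over the genome 22 of 546 such pairs (4.0%) lengthened as much as the 3′ site or more, and 439 (80.4%) had a ratio at or above that of the upstream site. The string was the longest calcitriol site on chromosome 10, where the next was 2970 bp long, and 30 of the 1600 joined calcitriol sites of the genome were at least as long. Chromosome 10 had no other string of 3 or more adjacent calcitriol peaks.

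As deposited, the calcitriol peaks of the locus lay within the range of widths of the other calcitriol peaks on the chromosome. The 11 ran from 630 to 2389 bp with a median of 1200 bp, and the 58 on the rest of chromosome 10 from 510 to 2519 bp with a median of 1310 bp. The order of the medians turned with adjacent peaks joined, to 1580 bp at the locus and 1430 bp on the rest of the chromosome. The narrowest and the widest of the locus were both pieces of the string at the 3′ end. The 7 calcitriol-only peaks of the locus had a median of 1110 bp (890 to 1640 bp), and the 43 calcitriol-only peaks on the rest of the chromosome a median of 1250 bp (510 to 2000 bp). The unstimulated peaks of 1740 and 2369 bp stood above the median of the other 22 (1524 bp, range 690 to 2220 bp), and the upstream one was wider than any of them. Lists of single libraries give no error for these medians.

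**Figure D2:**
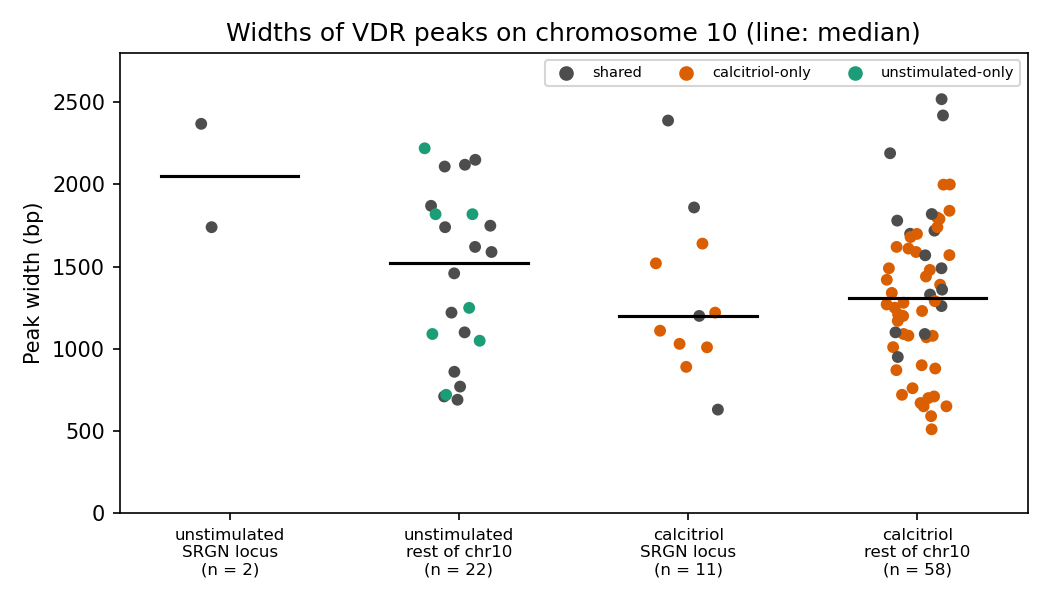
Width in bp of each VDR peak on chromosome 10, by list and by place (SRGN locus or rest of the chromosome); points are peaks coloured by class and lines are medians. The 11 calcitriol peaks of the locus (median 1200 bp) lie within the range of the other 58 (510 to 2519 bp), and the 2 unstimulated peaks are at 1740 and 2369 bp.

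As deposited, the proportion of calcitriol-only peaks at the locus lay between those of the whole list and the rest of the chromosome. Of its 11 calcitriol peaks 7 were calcitriol-only (63.6%), against 60.6% of all 1820 calcitriol peaks and 74.1% of the 58 on the rest of chromosome 10. The 95% intervals of these shares were 30.8 to 89.1% at the locus and 58.3 to 62.9% over all calcitriol peaks. For the rest of chromosome 10 the interval was 61.0 to 84.7%. These intervals cover counting error only and treat neighbouring peaks as separate. Since the locus was chosen in this contrast, nothing is read from its share. With adjacent peaks joined, the locus had 8 calcitriol sites of which 6 were calcitriol-only, against 64.4% over the genome and 74.1% on the rest of the chromosome.

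By number and spacing, which are what the choice of the locus rests on, its peaks stood apart from the rest of chromosome 10. The 200 kb window is 0.149% of the 134.2 Mb from the first to the last peak of the chromosome, and held 15.9% of its 69 calcitriol peaks and 8.33% of its 24 unstimulated peaks. The rest of the chromosome averaged 0.0865 calcitriol and 0.0328 unstimulated peaks per 200 kb. The locus supplied 9 of the 45 peaks by which the calcitriol list exceeded the unstimulated list on chromosome 10. Without the locus the chromosome still had 58 calcitriol against 22 unstimulated peaks, a ratio of 2.64, where the whole lists have 1.56. Each of the 11 calcitriol peaks had another within 10 kb, at a median distance of 0.95 kb and at most 6.39 kb, whereas 14 of the other 58 (24.1%) did, with a median of 191 kb and a range from 10 bp to 7000 kb.

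**Figure D3:**
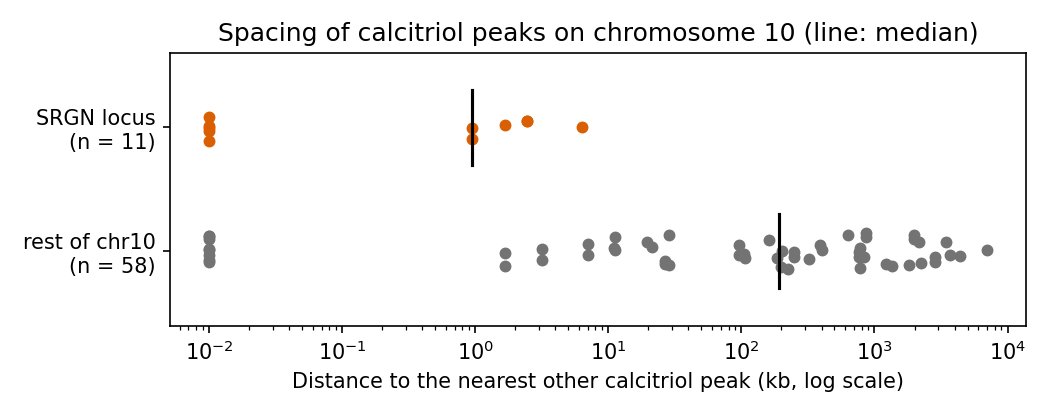
Distance in kb (log scale) from each calcitriol peak on chromosome 10 to the nearest other calcitriol peak, for the SRGN locus (top) and the rest of the chromosome (bottom); points are peaks and vertical lines are medians. The 11 peaks of the locus all have a neighbour within 6.39 kb, and the other 58 have a median of 191 kb.

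The next listed peaks outside the locus lay about 375 kb or more away. The outermost calcitriol peaks lay 71 kb inside the upstream edge of the window and 82 kb inside its downstream edge, so the window's edges do not decide the count. The next calcitriol peak upstream (chr10:65388921-65389821) was 5.43 Mb away, and the next downstream (chr10:71243101-71244781) was 375 kb away. Both were calcitriol-only and were 900 and 1680 bp wide. In the unstimulated list the next peaks were 5.54 Mb upstream and 628 kb downstream. With the locus left out, the median gap between neighbouring peaks of chromosome 10 was 783 kb in the calcitriol list and 1120 kb in the unstimulated list. The largest gaps were 10845.8 and 21697.8 kb. In both lists the downstream neighbour was thus nearer than the median gap and the upstream neighbour farther, so long empty stretches are not particular to SRGN. Of the protein-coding genes around SRGN, none could be placed on hg19 with the annotation at hand, so which of them lies nearest to the upstream sites was not determined.

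Chaining peaks of either list with gaps of at most 10 kb split the locus into an upstream cluster of 12.8 kb with 3 calcitriol peaks and 1 unstimulated peak, and a cluster of 18.0 kb over the gene and its 3′ flank with 8 calcitriol peaks and 1 unstimulated peak. Among 1720 clusters of the genome, the one over the gene had the most calcitriol-only peaks (5, with at most 4 elsewhere) and the largest excess of calcitriol over unstimulated peaks (7, with at most 5 elsewhere). By calcitriol peaks alone it had rank 4, tied with others at 8. Of all clusters, 1098 were single peaks. Elsewhere on chromosome 10 the fullest cluster by calcitriol peaks (chr10:43890461-43914670) had 3 of them, as many as the upstream cluster of SRGN, and 3 unstimulated peaks. After it came 6 clusters tied at 2 calcitriol peaks, such as chr10:1093751-1095561, which had no unstimulated peak and was taken from the tie by its excess over the unstimulated list and then by position.

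The clusters nearest to that of SRGN in calcitriol-only peaks had 4 each and were of different kinds. On chromosome 14 (chr14:100531191-100544030) and chromosome 22 (chr22:17580961-17588911) all 4 peaks were calcitriol-only and no unstimulated peak was present. On chromosome 19 (chr19:797691-868161) the 4 belonged to 18 calcitriol peaks in a stretch of 70.5 kb with 19 unstimulated peaks. The SRGN cluster thus had few unstimulated peaks, like the first pair, and a total of calcitriol peaks that few clusters reached. In all, 9 clusters, itself included, had 8 or more, and 1 of the others had 8 calcitriol and 3 unstimulated peaks.

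**Figure D4:**
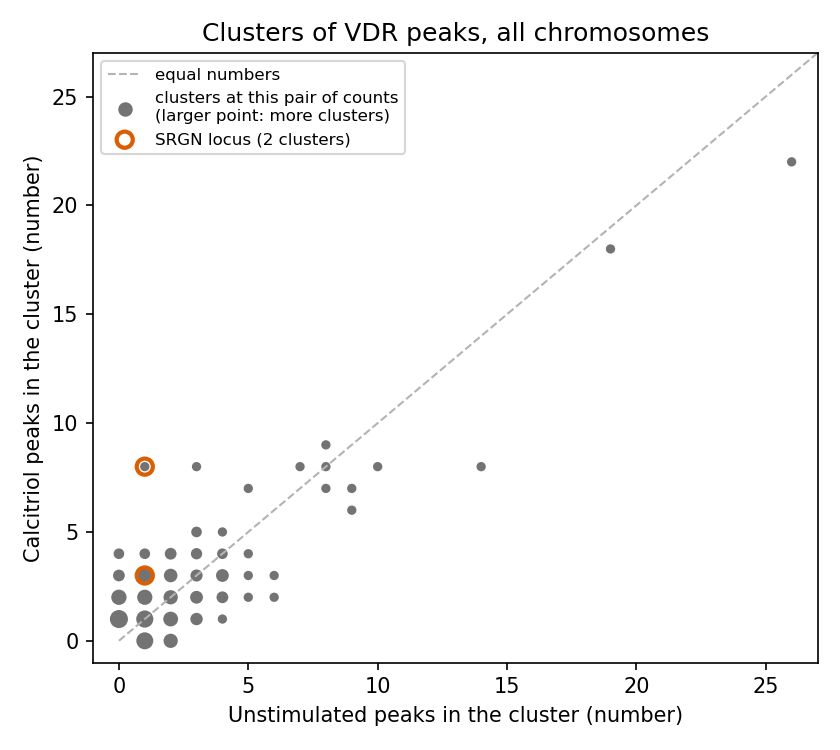
Number of unstimulated (x axis) and calcitriol (y axis) peaks in each cluster of VDR peaks chained at gaps of at most 10 kb, over all chromosomes; each grey point is a pair of counts and grows with the number of clusters that have it, the dashed line marks equal counts and orange circles mark the 2 clusters at SRGN. The cluster over the gene, with 1 unstimulated and 8 calcitriol peaks, has the largest excess of calcitriol peaks.

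The same held over windows of 200 kb, placed without overlap from the fullest down. The SRGN window had 11 calcitriol and 2 unstimulated peaks, an excess of 9. The next largest excess was 7, on chromosome 1 (from 155880921), with 4 unstimulated and 11 calcitriol peaks, of which 5 were calcitriol-only. Another window of chromosome 1 (from 244996321) came closer in calcitriol-only peaks, with 6 against 7 at SRGN. It had 8 calcitriol and 3 unstimulated peaks, an excess of 5. Windows with more calcitriol peaks were found on chromosomes 22 (from 46456231, with 22 calcitriol and 26 unstimulated peaks), 19 (from 800151, with 20 and 18) and 11 (from 67008231, with 13 and 16). These 3 were crowded in both lists, unlike SRGN. On chromosome 10 no other window held more than 4 calcitriol peaks. As the locus was selected as an extreme of such counts, its rank describes the selection and is no measure of how unlikely it is.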

How the data were processed

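VDR ChIP-seq was deposited for THP-1 cells, 1 library per condition, grouped by the treatment label. The submitters' processing notes name Bowtie and the build hg19. The peak caller, its threshold and any use of the IgG control were not given in the sources used here, and a threshold that depends on depth would change the number and width of peaks. The authors deposited 1 list per VDR sample with chromosome, start and end, and no other value. Several VDR immunoprecipitations were pooled per library, per the deposited protocol.

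Width is end minus start. Peaks with at least 1 bp in common were called shared, and peaks of a list at most 10 bp apart were joined where stated. The gene's edges on hg19 were given with the choice of the locus, to about 1 kb. Every peak in the window was described, and the most similar clusters were named by number of calcitriol-only or calcitriol peaks. Functions were tested on simulated lists. The locus, rules and alternatives were chosen with earlier results of these data known. Python 3.11.15, numpy 2.4.6, pandas 2.3.3, scipy 1.17.1 and matplotlib 3.10.9 were used.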

Additional observations from a re-analysis of the deposited data

How the results depend on the processing

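Of 35 alternative values for the locus and the rest of chromosome 10, each taken by itself, 30 stayed within 1.5 times of the reported count or were equal to the reported value. The order of the median widths between the locus and the rest of the chromosome turned under joining. Windows of 100 kb and of 1 Mb around the same centre gave 11 and 12 calcitriol peaks, with 2 unstimulated peaks in both. Joining adjacent peaks left 8 calcitriol and 2 unstimulated sites, and the excess over the unstimulated list, 6 sites, was again the largest of all windows (at most 4 elsewhere). By calcitriol peaks alone the locus had rank 4 as reported, tied with windows on chromosomes 1 and 17. Joining moved it to rank 2, tied with windows on chromosomes 19 and 22. Joining also raised the median calcitriol width from 1200 to 1580 bp at the locus and from 1310 to 1430 bp on the rest of chromosome 10, so the locus was below the rest as deposited and above it after joining. Chaining at 20 kb joined both clusters into 1 of 47.7 kb, against 18.0 kb. The distance from the gene start to the nearest calcitriol peak was 2.9 kb to its centre and 2.4 kb to its edge. With reciprocal overlap of at least 50% required, 10 of the 11 calcitriol peaks were calcitriol-only, and with centres within 500 bp 9 were. The former rule left out all 3 pieces of the string at the 3′ end. The shares over all calcitriol peaks under these 2 rules are not given here, so nothing is read from the counts. No paired analysis was possible because a condition is a single library, and for that reason no replicate could be left out. The depth behind each list is unknown, so a missing peak is a position not listed and is no evidence that VDR was absent.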
